A study of Mus musculus with 13 samples.

Results

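The comparison described here sets 3 arrays of mouse cortical neurons after 15 h of rotenone against 3 arrays after 8 h, 6 of the 13 arrays of the series, over all 11064 genes that were detected and had a symbol. Rotenone blocks complex I of the mitochondrial respiratory chain, and the study profiled gene expression during the neuronal death that follows. All cultures were cortical neurons taken from fetuses of Swiss albino mice at gestation day 15-16 and used on culture day 5, and the rotenone groups received 10 nM for 8 h, 15 h or 24 h (n = 3 each) beside a vehicle control (n = 4). No source used here gives the sampling time of the vehicle cells, and longer exposure and longer culture cannot be told apart in a difference between 8 h and 15 h. The replicates are not said to be separate cultures, and the p-values then measure only the spread between these samples, which may be technical. The number of arrays limits the precision. Such cultures hold some glia beside neurons, and in bulk RNA fewer cells of a type and less RNA per cell cannot be told apart.

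When complex I is blocked, electrons leak to oxygen and ATP synthesis falls. Cells are known to answer oxidants through NRF2, a transcription factor that binds antioxidant response elements. Stress in mitochondria, amino acid shortage or unfolded protein is answered through the integrated stress response. In it, phosphorylation of the initiation factor eIF2 slows translation and raises ATF4 and CHOP. p53 and the BCL2 family decide on arrest and cell death further downstream. The 2 intervals on either side of this one, vehicle to 8 h and 15 h to 24 h, are used below only to show where this interval differs.

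Levels are log2 of the probe signal after background correction and quantile normalization, one probe a gene, and a change is the mean at 15 h minus the mean at 8 h with its standard error. A gene is said to have risen or fallen where limma's adjusted p was under 0.05. Neuronal markers were present, though not all of those looked for. The tubulin gene Tubb3 and the vesicle protein gene Syp were detected on all 6 arrays. Gad2 and Nefl did not pass detection, and the probe of Snap25 was detected on none of the 8 h arrays. The mean probe signal before scaling was 363 ± 34.8 (SD, n = 3) at 8 h and 270 ± 16.1 at 15 h, while 52.1% and 51.8% of probes were detected. Replicate 1 at 15 h stood apart from the other two. It lay at −31.3 on the second principal component, against −10.9 and −10.3, and its mean correlation with its group was 0.975 against 0.987 and 0.986. It was the 15 h array farthest from 8 h in 62.0% of the genes that changed. By the array with identical signals in the authors' detection table, it and 8 h replicate 1 were the only arrays of these groups on one of the 2 chips, while the array codes in the labels place other replicates there. Counts are therefore also given without 15 h replicate 1. Among the 8 h arrays replicate 2 lay farthest from the others, at −35.5 on the first principal component against −28.2 and −28.6. Its mean correlation with its group was 0.988 against 0.993 and 0.993. Without 8 h replicate 2, 2625 genes rose and 2690 fell from 8 h to 15 h.

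From 8 h to 15 h, 2857 genes rose (25.8% of those tested) and 2796 fell (25.3%), so that 51.1% changed. Without 15 h replicate 1 the counts were 2715 and 2745, of which 4914 calls were shared with the full comparison. At least 2-fold changes were seen in 541 risen and 589 fallen genes, and at least 4-fold ones in 56 and 39. In 3244 genes (29.3%) all 15 h arrays lay above all 8 h arrays, and in 3020 (27.3%) all lay below. Among the 11064 genes tested, 181 were detected on no 8 h array and on all 15 h arrays, and 150 of them rose. The reverse held for 200, and 187 of them fell. Detection is a cutoff on the same signals, so these calls are largely fixed by the choice of genes and add no separate evidence. At 8 h against vehicle 48 genes passed (0.434%), and from 15 h to 24 h 2482 did (22.4%). With the chip as a block the number that changed was 5602 by the labels' codes and 5811 by identical signals. Within single chips it was 3846 and 2564 by the labels' codes and 4284 and 6331 by identical signals, where a group has 1 or 2 arrays and a lone array is taken to vary like the others. As 51.1% of all genes changed, the number of list members that changed is read below against 25.8% and 25.3%. These shares hold for quantile normalization only. With median scaling 1545 of the 11064 genes rose and 4453 fell, with no scaling 1091 and 4670. With the authors' values 1483 rose and 4571 fell. List counts under those scalings are to be read against these numbers.

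The balance of rises and falls depends on the scaling, and the arrays at 15 h were dimmer before it. With quantile normalization the median change of all genes was 0.03, and 50.5% of calls were rises. With median scaling the median change was −0.16 and 25.8% of calls were rises (1545 against 4453 falls), with no scaling −0.21 and 18.9% (1091 against 4670), and with the authors' normalized values −0.19 and 24.5% (1483 against 4571). Each of the 15 largest rises and 15 largest falls kept its direction and passed under all of these, and groups of genes with small changes are given with the other counts where their direction turns.

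**Figure D1:**
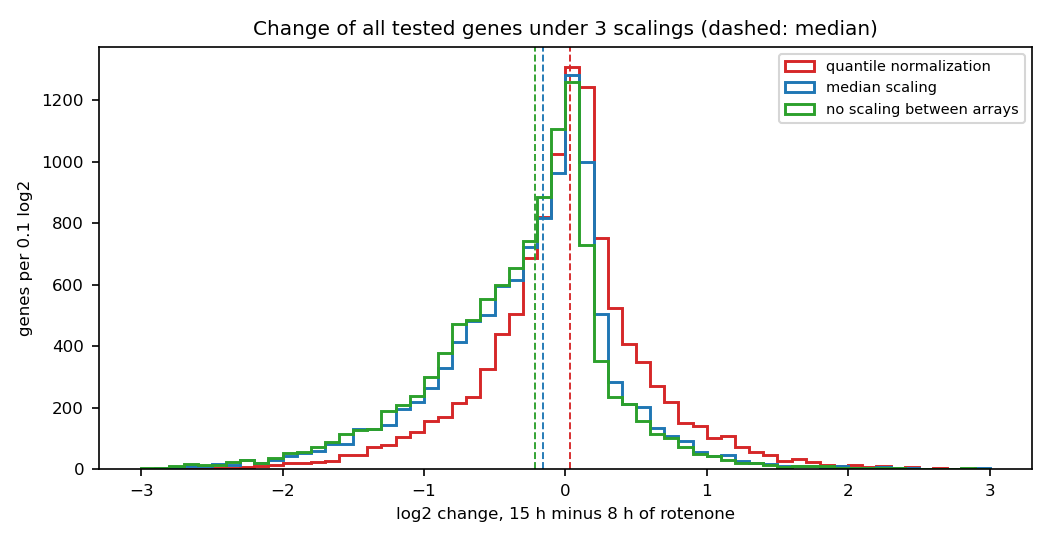
Number of tested genes in each 0.1-wide bin of the log2 change from 8 h to 15 h, under quantile normalization, median scaling and no scaling between arrays, with dashed lines at the medians. The medians are 0.03, −0.16 and −0.21, and the curves without quantile normalization hold more genes below 0, while their peaks lie close together.

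The largest rise was that of Hmox1, the heme oxygenase that degrades heme, with levels of 8.76, 7.94 and 8.99 at 8 h and 12.51, 12.77 and 12.82 at 15 h. The groups were far apart, a change of 4.14 ± 0.28, adjusted p = 1.73e-08, which is 17.6-fold. Vehicle cells had a mean of 8.69, close to the 8 h arrays. Angptl4, a secreted inhibitor of lipoprotein lipase, followed with 7.17, 6.37 and 7.21 at 8 h and 9.77, 10.69 and 10.58 at 15 h. It rose 10.8-fold after a fall from the vehicle mean of 8.44 to 8 h, and a second probe changed by 1.47. Srxn1, the sulfiredoxin that repairs overoxidised peroxiredoxins, went from 8.61, 7.99 and 8.60 to 11.53, 11.90 and 11.92 (3.38 ± 0.26, adjusted p = 5.71e-08), and its other probes changed by 3.25 and 3.09. In each of these genes 8 h replicate 2 was the lowest array. Nupr1, a small nuclear stress protein, read 6.67, 6.41 and 6.80 at 8 h and 9.59, 10.13 and 10.18 at 15 h and rose 10.2-fold. Gdf15, a secreted stress cytokine of the TGF-beta family, read 6.39, 6.10 and 6.28 at 8 h and 8.83, 9.62 and 9.83 at 15 h and rose 9.01-fold. The gap between the groups exceeded the spread within either. Ooep, known from the oocyte, had levels of 6.22, 5.97 and 6.19 at 8 h and 9.71, 8.99 and 8.95 at 15 h and was detected on 1 of the 3 arrays at 8 h.

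The next rises were Gsta4, a glutathione transferase for aldehydes of lipid peroxidation (2.88 ± 0.18), and Pdk4, the kinase that shuts off pyruvate dehydrogenase (2.72 ± 0.19). Aebp1, a collagen-binding matrix protein, rose by 2.69 ± 0.18, Anxa3, an annexin, by 2.68 ± 0.15, and the small heat shock protein gene Hspb8 by 2.67 ± 0.16. Ddit4l, an inhibitor of mTORC1 signalling, rose by 2.62 ± 0.15, Tubb6, a beta tubulin of non-neuronal cells, by 2.55 ± 0.18, Gadd45a, a growth arrest gene, by 2.49 ± 0.12, and Slc7a11, the cystine importer, by 2.49 ± 0.15. These 15 genes are the largest rises among those whose groups did not overlap. The last of them, Slc7a11, read 9.16, 8.46 and 8.51 at 15 h against 6.31, 6.00 and 6.36 at 8 h.

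The largest falls were chosen in the same way. Ackr1, an atypical chemokine receptor whose probe is described as the Duffy blood group gene, fell from 10.45, 10.52 and 10.57 to 7.50, 8.14 and 8.01, a change of −2.63 ± 0.16, adjusted p = 5.40e-09. Sncb, beta-synuclein, fell from 10.07, 9.90 and 10.34 to 6.97, 7.78 and 7.80, 6.01-fold lower. In both genes 15 h replicate 1 was the lowest array. Aplp1, a relative of the amyloid precursor, fell by 2.47 on the log2 scale, Crmp1, an axonal phosphoprotein, by 2.41, and Tubb4a, a neuronal and glial beta tubulin, by 2.39. Prss12, the synaptic protease neurotrypsin, changed by −2.38 ± 0.12, Cbln1, a synapse organiser, by −2.37 ± 0.16, Syngr3, a vesicle membrane protein, by −2.33 ± 0.17 and Jakmip1, which binds microtubules, by −2.29 ± 0.11. Nxph2, a neurexin ligand, changed by −2.29 ± 0.28, Camk2b, a calmodulin kinase subunit, by −2.21 ± 0.14, and Ccdc184 by −2.19 ± 0.18. For Cyrib (−2.24 ± 0.18) and the transcription factor gene Mef2c (−2.23 ± 0.18) a second probe moved less, by −0.38 and −0.87.

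**Figure D2:**
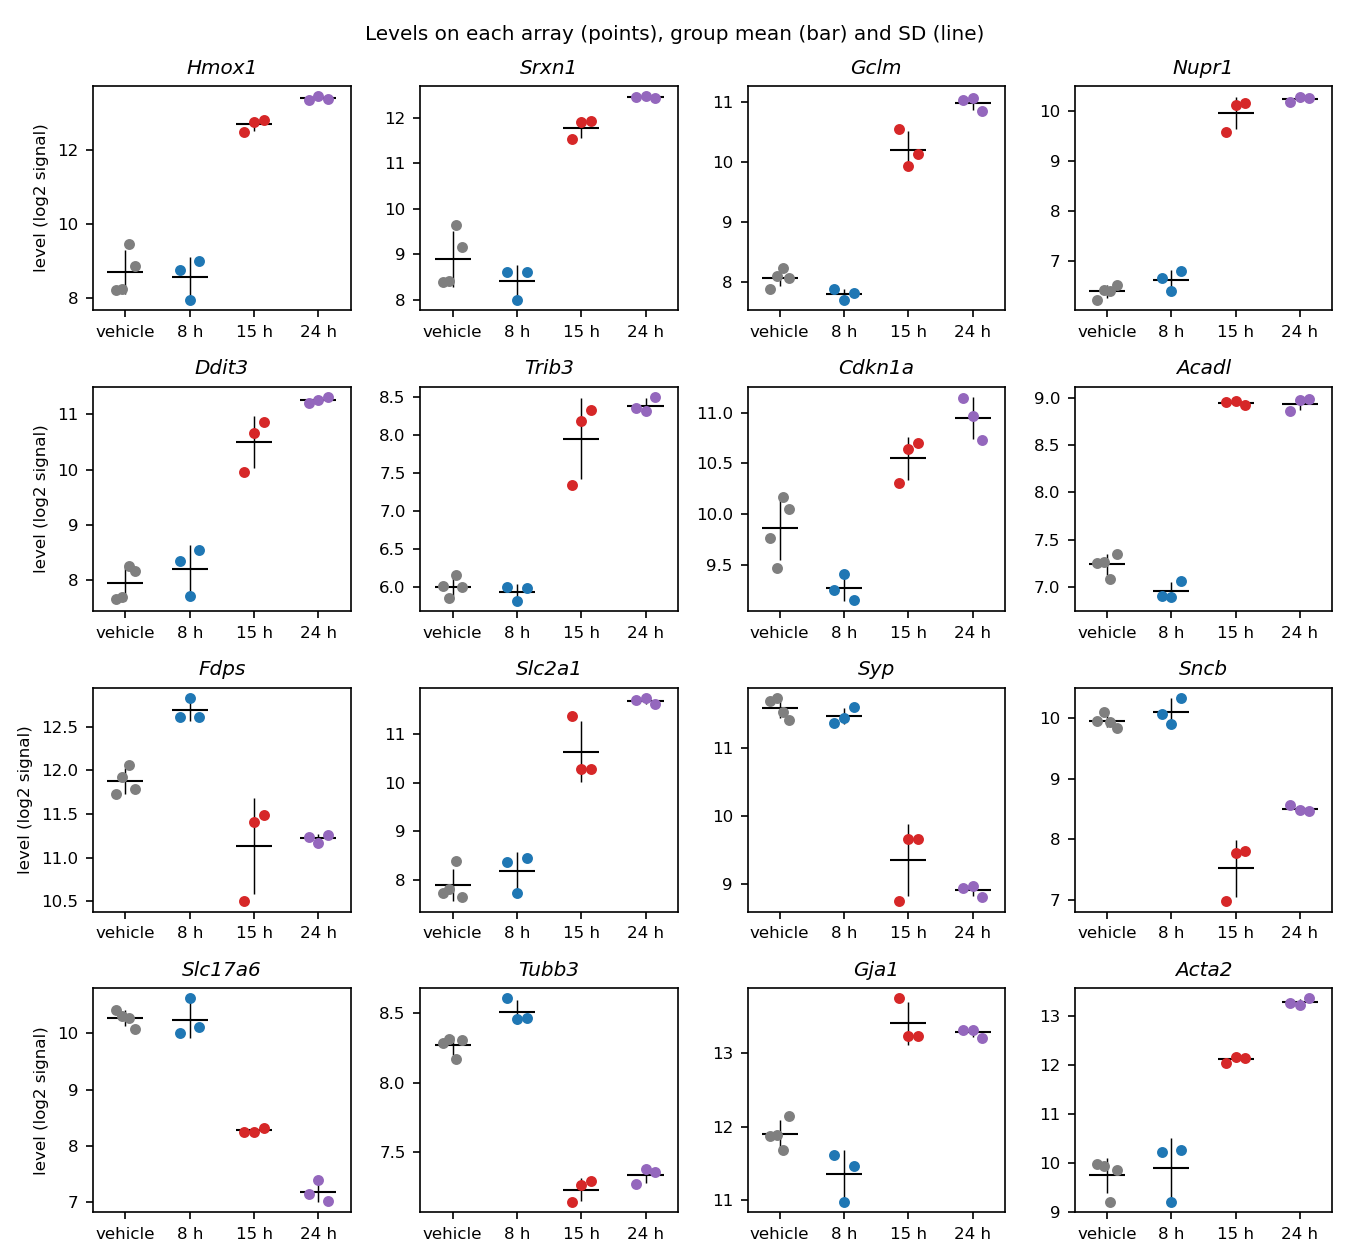
Level on each array (log2 signal) of 16 genes in vehicle (n = 4) and after 8 h, 15 h and 24 h of rotenone (n = 3 each), with group means as bars and SD as lines, and a separate axis for each gene. In every panel the 3 arrays at 15 h lie on one side of the 3 at 8 h.

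Stress factors are known to reach their genes through short DNA motifs, and the promoters of risen genes that hold 2 of these motifs are shown as context for the levels below. Windows from 250 bases before to 50 bases after each annotated start (RefSeq, GRCm38.p6) were searched on both strands for TGACNNNGC, the core of the antioxidant response element, and for TGATGNAA, the core of the composite element of C/EBP and ATF factors. The 2 motifs shared bases in 0 of 32851 windows. The antioxidant core was found in 8 of the 22 NRF2 genes with a window and in 6 of the 15 risen ones, against 17.1% of all risen genes, 16.5% of all tested genes and 12.4% of all windows. Stretches with 30 bases on either side of the core (fewer at the window's end), 5′ to 3′ on the gene's strand and with the core in capitals, are given for 5 of them, chosen because they hold the motif.
Gclm: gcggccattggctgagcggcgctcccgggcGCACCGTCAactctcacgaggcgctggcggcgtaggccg
Srxn1: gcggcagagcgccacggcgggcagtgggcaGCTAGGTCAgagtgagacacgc
Prdx1: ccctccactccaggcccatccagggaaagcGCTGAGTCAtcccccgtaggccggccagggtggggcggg
Me1: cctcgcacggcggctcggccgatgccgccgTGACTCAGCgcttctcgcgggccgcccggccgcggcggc
Gsta3: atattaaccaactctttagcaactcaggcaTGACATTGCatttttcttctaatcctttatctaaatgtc
They lie at chr3:122245393-122245461 (plus strand), chr2:152105522-152105573 (plus), chr4:116685436-116685504 (plus), chr9:86695882-86695950 (minus) and chr1:21240434-21240502 (plus). Me1 and Gsta3 hold the core on the gene's own strand and the other 3 on the opposite one.

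The composite element was found in 8 of the 26 genes of the integrated stress response with a window and in 7 of the 19 risen ones, against 3.47% of all risen genes, 3.02% of all tested genes and 3.97% of all windows. The same kind of stretch is shown for 3 regulators of the response and for 2 enzymes, chosen because they hold the motif.
Nupr1: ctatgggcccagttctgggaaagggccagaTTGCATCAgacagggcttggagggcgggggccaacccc
Atf3: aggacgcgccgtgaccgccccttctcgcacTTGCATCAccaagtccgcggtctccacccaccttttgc
Trib3: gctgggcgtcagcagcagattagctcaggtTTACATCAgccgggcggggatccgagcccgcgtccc
Chac1: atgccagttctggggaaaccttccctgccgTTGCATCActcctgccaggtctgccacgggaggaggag
Asns: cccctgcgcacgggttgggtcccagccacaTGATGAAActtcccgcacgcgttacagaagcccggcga
They lie at chr7:126625543-126625610 (minus strand), chr1:191183406-191183473 (minus), chr2:152344011-152344076 (minus), chr2:119351019-119351086 (plus) and chr6:7693195-7693262 (minus). Nupr1, Atf3 and Chac1 share the same 8 letters on the same strand. The shares were not tested, and a match is not a shown binding site.

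Genes of the NRF2 response rose together. Of 27 measured members 19 rose, 1 fell and 7 did not pass, with a median change of 1.07 against 0.03 for all genes. Without 15 h replicate 1 the counts were 22 and 1, and the 3 other scalings kept 18 or 19 rises beside 4 or 5 falls. Beside Hmox1, Srxn1 and Gsta4, the glutathione branch was high: Gclm, a subunit of the enzyme that starts glutathione synthesis, had levels of 7.88, 7.70 and 7.82 at 8 h and 10.54, 9.93 and 10.12 at 15 h. All 15 h arrays lay far above the 8 h arrays, a change of 2.40 ± 0.14, adjusted p = 5.04e-09. Slc7a11, which imports its precursor cystine, rose 5.61-fold from levels near background. Of the genes whose promoters are printed, Me1, which makes NADPH, rose by 1.38 ± 0.12, Gsta3, another glutathione transferase, by 1.35 ± 0.14, and Prdx1, a peroxide-reducing enzyme, by 0.97 ± 0.10. Gstp1, the brightest member that did not pass, read 11.07, 11.55 and 11.24 at 8 h and 10.98, 11.79 and 11.60 at 15 h, with overlapping groups (0.17 ± 0.17, adjusted p = 0.435). The one that fell was Cbr1, a carbonyl reductase, at −0.46 ± 0.13, named after its value was seen.

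The integrated stress response showed 23 risen and 1 fallen of 32 measured members, with a median of 0.61 (23 and 1 without 15 h replicate 1). The other scalings left 15 rises each, with 5 falls. Ddit3, which encodes CHOP, had levels of 8.34, 7.72 and 8.55 at 8 h and 9.96, 10.67 and 10.86 at 15 h, a change of 2.29 ± 0.23, adjusted p = 8.72e-07. Trib3, a pseudokinase induced by CHOP, was detected on none of the 8 h arrays and read 7.34, 8.17 and 8.32 at 15 h, so that it was at least 3.28-fold higher (adjusted p = 2.42e-07). In both, 15 h replicate 1 was the lowest of its group. Eif4ebp1, a repressor of cap-dependent translation, rose by 2.40 ± 0.20, although its second probe, at 0.0046, did not move with it. Atf3, a stress transcription factor, read 6.79, 5.88 and 6.77 at 8 h and 7.61, 7.85 and 7.83 at 15 h, with 1 low array at 8 h and no overlap (1.29 ± 0.18, adjusted p = 2.03e-05).

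Atf4, the factor at the head of the response, changed little at its brightest probe, from 10.96, 10.31 and 10.97 to 10.82, 11.34 and 11.35, groups that overlap (0.42 ± 0.17, adjusted p = 0.0494). That call was lost in most alternatives tried, while its other probe changed by 1.11. Of its known targets with a printed promoter, Chac1, which degrades glutathione, rose by 0.60 ± 0.20 and Asns, asparagine synthetase, by 0.53 ± 0.12. Under the 3 other scalings neither passed, with changes of 0.13, 0.05 and 0.09 for Chac1 and of −0.0031, −0.09 and −0.05 for Asns. Eif2s2, a subunit of eIF2 itself, did not pass (−0.14 ± 0.11, adjusted p = 0.307). The fallen member was Ndrg1, also a hypoxia gene (−0.66 ± 0.16, named after its value was seen).

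Enzymes of amino acid and one-carbon synthesis, many under ATF4, gave 7 rises and 1 fall of 17. Phgdh and Psat1 of serine synthesis rose by 1.19 ± 0.18 and 0.78 ± 0.15, and Cth, which makes cysteine, by 0.85 ± 0.10. Psat1 no longer passed under the 3 other scalings, where 2 members rose. Of 15 cytosolic tRNA synthetases 3 rose and 4 fell, close to the shares over all genes (25.8% and 25.3%). Without 15 h replicate 1, 4 rose and 2 fell. Nars, for asparagine, fell from 10.67, 10.66 and 10.67 to 9.96, 9.97 and 9.95 (−0.70 ± 0.11, adjusted p = 5.77e-05), with very tight groups, whereas Dars, for aspartate, rose by 0.85 ± 0.14. With the other scalings 0 synthetases were higher and 8 to 10 lower.

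Of 18 members of the unfolded protein response of the endoplasmic reticulum 4 rose and 4 fell, with a median of 0.03. These counts are close to the shares over all genes (25.8% and 25.3%). Derl2, of the export of misfolded proteins, rose by 0.66 ± 0.12, and Xbp1, a transcription factor of this response, fell by 0.62 on the log2 scale. The other scalings left at most 1 rise and 8 or 9 falls, and Derl2 no longer passed. Among heat shock and chaperone genes 10 of 19 rose and 2 fell, and those with the smallest p were Hspb8, Hspa9, the mitochondrial HSP70 (1.50 ± 0.14), Bag3, the partner of Hspb8 (1.38 ± 0.18), and Cryab, another small heat shock protein (1.33 ± 0.15). Hspb8 read 7.71, 7.22 and 7.55 at 8 h and 10.40, 10.06 and 10.02 at 15 h. The other scalings gave 5 or 6 rises and 4 to 6 falls in the list.

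Targets of p53 were more often up, with 14 of 21 risen, 2 fallen and a median of 0.43 (14 and 2 without 15 h replicate 1). Ccng1, a cyclin induced by p53, had levels of 7.29, 7.68 and 7.55 at 8 h and 9.69, 9.48 and 9.49 at 15 h (2.04 ± 0.11, adjusted p = 2.96e-09). Its other probes changed by 1.87 and 0.15. Cdkn1a, the p21 inhibitor of the cell cycle, rose by 1.28 ± 0.17, Trp53inp1 by 1.64 ± 0.17, Mdm2, the ligase that degrades p53, by 1.19 ± 0.13, and the death receptor gene Fas by 0.79 ± 0.09. Bbc3, which encodes the death factor PUMA, read 6.32, 6.20 and 6.25 at 8 h and 6.33, 6.51 and 6.59 at 15 h, close to background, and its call (0.22 ± 0.09, adjusted p = 0.0404) was lost in many alternatives.

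Of 25 genes of the BCL2 family and caspases 7 rose and 8 fell, close to the shares over all genes (25.8% and 25.3%). With the other scalings 2 to 4 were up and 12 down. Casp6 rose by 0.91 ± 0.12 at its brightest probe but by 0.05 at a second one. Diablo, which releases caspases from their inhibitors, rose by 0.63 ± 0.09, a call the other scalings lost, and the BCL2 relative Bok fell by 0.74 on the log2 scale. Mcl1, a survival factor, read 10.80, 10.79 and 10.74 at 8 h and 10.83, 10.79 and 10.68 at 15 h and did not pass (−0.01 ± 0.09, adjusted p = 0.932).

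Fatty acid oxidation and PPAR genes had the highest median of the 40 lists, 1.33, with 11 of 14 risen and 1 fallen under every scaling and also without 15 h replicate 1. Acadl, a long-chain acyl-CoA dehydrogenase, had levels of 6.90, 6.89 and 7.07 at 8 h and 8.96, 8.97 and 8.92 at 15 h, with little spread in either group (2.00 ± 0.10, adjusted p = 1.94e-09). A second Acadl probe changed by 0.23. Plin2, which coats lipid droplets, rose by 1.66 ± 0.11, and Pdk4 read 7.36, 6.72 and 7.29 at 8 h and 10.23, 9.61 and 9.71 at 15 h. The fallen member was Fabp3, a fatty acid carrier also found in neurons (−1.25 ± 0.12, named after its value was seen). The list's median at 8 h against vehicle was −0.37.

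Cholesterol synthesis fell as a group. Of 22 measured members 1 rose, 16 fell and 5 did not pass, with a median of −0.76 (1 and 16 without 15 h replicate 1, and 20 falls under each of the other scalings). Fdps, the farnesyl diphosphate synthase, went from 12.62, 12.83 and 12.61 to 10.50, 11.40 and 11.49 (−1.56 ± 0.19, adjusted p = 4.40e-06). All 3 arrays at 15 h lay below those at 8 h, 15 h replicate 1 lowest, and the change was −1.24 without it. The last step fell too, Dhcr7 by 1.27 on the log2 scale, as did Acat2 at the first (−1.34 ± 0.13) and Hmgcs1, the synthase of HMG-CoA, by 0.37. Vehicle means lay between the times for Fdps (11.88), Dhcr7 (7.96) and Acat2 (10.70), and the list's median at 8 h against vehicle was 0.58. Insig1, the sterol-regulated retention protein, read 8.19, 8.79 and 8.40 at 8 h and 7.97, 8.36 and 8.37 at 15 h and did not pass (−0.23 ± 0.15, adjusted p = 0.214). Hsd17b7 did not pass either (−0.21 ± 0.14). The riser was Scap, the escort of SREBP (0.93 ± 0.20, or 0.58 without 15 h replicate 1, named after its value was seen).

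Glucose genes were reshuffled. Of 22 measured, 9 rose and 9 fell. Entry genes were among the risers: Slc2a1, the GLUT1 transporter, had levels of 8.37, 7.75 and 8.45 at 8 h and 11.35, 10.27 and 10.28 at 15 h (2.45 ± 0.26, adjusted p = 1.23e-06) and Hk2, an inducible hexokinase, rose by 1.68 ± 0.15. For Slc2a1, 15 h replicate 1 was the highest array, and the change was 2.09 without it. Among the fallers Eno2, the neuronal enolase, went from 10.84, 10.93 and 10.75 to 9.86, 9.88 and 9.78 (−0.999 ± 0.10, adjusted p = 8.58e-07), and Pfkfb2, a regulator of glycolytic flux, changed by −1.06 ± 0.11, its second probe by −0.18. Hypoxia targets, which include Slc2a1 and Hk2, gave 6 rises and 2 falls of 14, with Egln3, a HIF prolyl hydroxylase, at 1.22 ± 0.15 and Adm, adrenomedullin, at 0.73 ± 0.10. With the other scalings the glycolysis list had 2 or 3 rises and 11 falls, and the hypoxia list 5 or 6 rises and 5 falls.

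The subunits of complex I, the target of rotenone, changed little. Of 31 measured, 12 rose and 4 fell, and the changes ranged from −0.66 to 0.55. Ndufa13 read 12.55, 12.34 and 12.42 at 8 h and 13.14, 12.90 and 12.87 at 15 h (0.53 ± 0.09, adjusted p = 0.000136) and Ndufa1 fell by 0.39. Ndufv3 fell by 0.66 at its brightest probe while the second changed by 0.36. With the other scalings 0 members rose: 10 fell with median scaling, 11 with no scaling and 12 with the authors' values. Over all 11064 genes 4453, 4670 and 4571 fell under these scalings, so the shift is not particular to complex I. The other complexes (6 up, 4 down of 33) shifted the same way, to 20 falls with 0 rises. The mitochondrial ribosome (8 up, 5 down of 34) went to 17 to 19 falls with at most 1 rise. Without 15 h replicate 1 the other complexes gave 11 rises and 5 falls. Among them Uqcrb of complex III rose by 0.72 ± 0.12 and Mrpl17 by 0.69 ± 0.10, calls lost with the other scalings, and Mrpl19 fell by 0.69.

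Cytosolic ribosomal proteins leaned upward by small steps, with 25 of 45 risen, 0 fallen and a median of 0.28. Rpl6 had the smallest p, with levels of 10.22, 10.34 and 10.34 at 8 h and 11.59, 11.31 and 11.26 at 15 h (1.09 ± 0.13, adjusted p = 3.05e-06). With the other scalings the list gave 9 rises and 1 fall, 4 and 2, and 6 and 2. Few proteasome genes passed, with 3 rises and 2 falls of 32, or 0 rises and 19 to 21 falls with the other scalings.

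Lysosomal genes rose. Of 21 measured 14 rose, 1 fell and 6 did not pass, with a median of 0.59 (14 and 1 without 15 h replicate 1, and 10 rises with 3 falls under each other scaling). Cd63, a tetraspanin of late endosomes, had levels of 10.75, 10.51 and 10.85 at 8 h and 12.93, 13.15 and 13.10 at 15 h (2.35 ± 0.17, adjusted p = 2.41e-08). Lamp2, a lysosomal membrane protein, rose by 1.75 ± 0.12, with a second probe at 1.69, and the proteases Ctsb and Tpp1 rose by 0.94 ± 0.08 and 1.15 ± 0.11. Many lysosomal promoters are known to carry the E-box CACGTG read by TFEB. It was found in 3 of the 11 risen members with a window and in 4 of the 6 that did not rise, against 12.1% of all risen genes, 11.2% of all tested genes and 7.15% of all windows. It shared bases with the antioxidant core in 101 of 32851 windows and with the composite element in 3. Lamp1, which rose by 1.04 ± 0.13, held 4 copies within chr8:13159070-13159181 (GRCm38.p6, plus strand), shown with the E-boxes in capitals.
Lamp1: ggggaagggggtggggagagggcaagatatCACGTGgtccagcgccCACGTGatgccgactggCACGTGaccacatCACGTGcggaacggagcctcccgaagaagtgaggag
Of 20 autophagy genes 7 rose and 6 fell, beside 25.8% and 25.3% of all genes. Wipi1, of the early autophagosome, changed by 1.30 ± 0.15 and Ulk2, a starting kinase, by −0.85 ± 0.14. With the other scalings 1 was up and 12 or 13 were down. Metallothioneins, which bind zinc and copper, were high: Mt1 read 12.94, 12.67 and 12.91 at 8 h and 14.34, 14.18 and 14.34 at 15 h, and Mt2 rose by 1.85 ± 0.15. Of 6 metal response genes 5 rose (4 without 15 h replicate 1, and 2 or 3 with the other scalings).

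The synaptic vesicle machinery had the lowest median of the 40 lists, −1.46. Of 25 measured 1 rose, 22 fell and 2 did not pass, and the scalings kept 22 falls (21 without 15 h replicate 1). Syp, synaptophysin, went from 11.37, 11.44 and 11.60 to 8.75, 9.67 and 9.67 (−2.11 ± 0.19, adjusted p = 1.98e-07), and the change was −1.80 without 15 h replicate 1. Stx1a, a SNARE of the plasma membrane, had levels of 11.83, 12.02 and 11.81 at 8 h and 10.17, 10.12 and 10.04 at 15 h (−1.78 ± 0.11, adjusted p = 7.11e-09). Cadps, of dense-core vesicle release, fell by 1.83 on the log2 scale and Rab3a, a vesicle GTPase, by 1.42. The riser was Snap25, named after its value was seen, whose probe was detected on none of the 8 h arrays and changed by 0.21 ± 0.05, which leaves this abundant neuronal gene without a level. Unc13a, a priming factor, lay near background and did not pass (−0.02 ± 0.09).

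**Figure D3:**
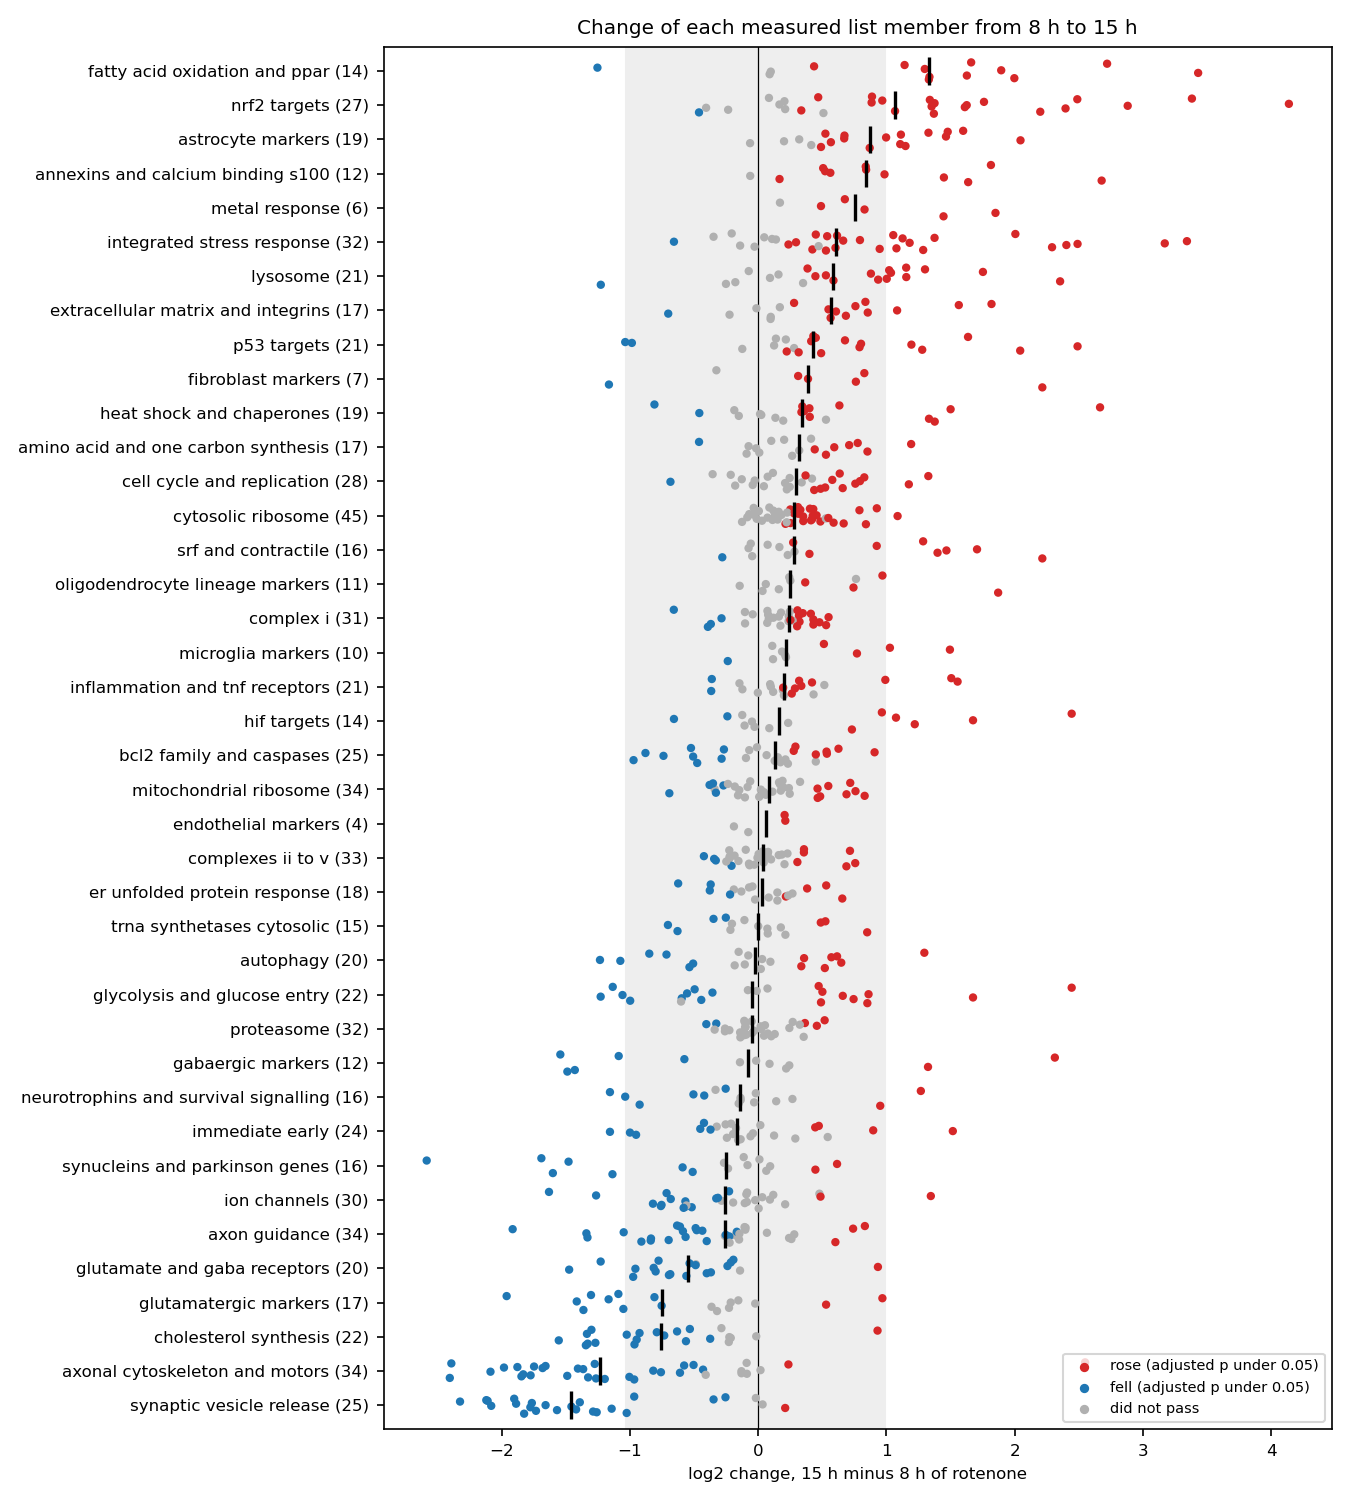
Log2 change from 8 h to 15 h of every measured member of 40 gene lists (number measured in parentheses), ordered by the list's median (black bar), coloured by whether the member rose, fell or did not pass, with the range from the 5th to the 95th percentile of all tested genes shaded. Medians run from −1.46 for synaptic vesicle release to 1.33 for fatty acid oxidation and PPAR genes.

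Receptor, channel and guidance genes also fell, with medians closer to 0. Of 20 glutamate and GABA receptor genes 17 fell and 1 rose (13 and 1 without 15 h replicate 1), with a median of −0.55. The riser was Gria3, an AMPA receptor subunit (0.93 ± 0.13), whose 2 other probes changed by −0.40 and −0.11. Among ion channels 14 of 30 fell and 2 rose (17 and 1 with the other scalings), with a median of −0.26. The BK channel gene Kcnma1 and the sodium channel subunit gene Scn3b changed by −1.26 ± 0.14 and −1.63 ± 0.20. Kcnk2, a leak potassium channel, rose by 1.35 ± 0.16 at one probe and 0.13 at the other. Among axon guidance genes 19 of 34 fell and 3 rose, with a median of −0.26, among them Sema6b, a semaphorin (−1.92 ± 0.14, with −0.53 at a second probe), Robo1, a Slit receptor (−1.34 ± 0.16), and Ephb2, an ephrin receptor (−1.33 ± 0.16).

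The axonal cytoskeleton followed the vesicle genes, with 26 of 34 fallen, 2 risen and a median of −1.23 (−0.98 without 15 h replicate 1). Crmp1 went from 12.48, 12.37 and 12.87 to 10.03, 10.15 and 10.33 and Tubb4a from 9.78, 9.65 and 9.79 to 7.04, 7.55 and 7.46. All 15 h arrays of both lay well under the 8 h arrays. Dpysl4, of the same family as Crmp1, changed by −1.49 ± 0.11 at its brightest probe and by −0.45 at the other, and Tubb3, the tubulin used to mark neurons, changed by −1.28 ± 0.10, adjusted p = 4.48e-08. Tubulin isotypes parted: Tubb6 rose from 7.36, 7.17 and 7.31 to 10.36, 9.60 and 9.54, while Tubb5, the brightest member that did not pass, read 13.56, 13.76 and 13.38 at 8 h and 13.65, 13.44 and 13.34 at 15 h, and the second Tubb5 probe changed by −0.91.

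Markers of glutamatergic neurons fell in 9 of 17 cases and rose in 2 (13 and 1 without 15 h replicate 1, and the same counts with each other scaling). Slc17a6, the vesicular glutamate transporter of young neurons, had levels of 10.00, 10.62 and 10.11 at 8 h and 8.25, 8.26 and 8.33 at 15 h (−1.96 ± 0.15, adjusted p = 4.46e-08), and Slc17a7, its partner in mature ones, fell by 1.30 on the log2 scale. Nrgn, neurogranin, changed by −1.17 ± 0.11 and Neurod2, a neuronal transcription factor, by −1.42 ± 0.16. The summed signal of the list ran from 7557 to 7949 on the 8 h arrays and from 5116 to 5683 on the 15 h arrays. Sums here and below add the quantile-normalized values of all measured members, so members that were not detected add background. They were not made under the other scalings.

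GABAergic markers gave 5 falls and 2 rises of 12. Sst, somatostatin, fell from 9.99, 10.06 and 9.98 to 8.15, 8.61 and 8.65 (−1.54 ± 0.14, adjusted p = 3.13e-07) after a vehicle mean of 11.30, and Calb2, calretinin, changed by −1.49 ± 0.10. Gad1, which makes GABA, read 10.63, 10.34 and 10.61 at 8 h and 10.68, 10.24 and 10.23 at 15 h and did not pass (−0.14 ± 0.17, adjusted p = 0.51). The risers were Pvalb, parvalbumin, from 6.33, 6.23 and 6.41 to 8.86, 8.57 and 8.50 (2.31 ± 0.15), and Dlx2, a factor of interneuron development (1.32 ± 0.09, but 0.17 at a second probe). The list's summed signal ran from 7066 to 7170 at 8 h and from 6257 to 6667 at 15 h, and the listed Gad2, Vip and Calb1 were among those that did not pass detection.

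Genes of the synucleins and Parkinson disease, for which rotenone serves as a model, gave 7 falls and 2 rises of 16, or 11 falls and 1 rise with the other scalings. Beside Sncb, Uchl1, a neuronal deubiquitinase, fell from 12.03, 12.35 and 12.17 to 9.81, 10.78 and 10.88 (−1.69 ± 0.19, adjusted p = 2.62e-06), and Atp13a2, a lysosomal pump, by 1.14 on the log2 scale. Park7, or DJ-1, read 12.03, 12.08 and 11.93 at 8 h and 11.92, 11.91 and 11.95 at 15 h and did not pass (−0.08 ± 0.08, adjusted p = 0.372). Among neurotrophin and survival genes 6 of 16 fell and 2 rose, or 8 or 9 fell and 1 or 2 rose with the other scalings. The kinase gene Akt2 changed by 0.95 ± 0.12 and the growth factor gene Ntf3 by −1.16 ± 0.19.

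Markers of astrocytes rose in 15 of 19 cases and fell in 0, with a median of 0.87, and 16 rises and 1 fall without 15 h replicate 1. Their summed signal ran from 17808 to 24719 at 8 h and from 53999 to 54811 at 15 h, against 25244 to 30007 in vehicle. Of the 21 listed, Slc1a2 and S100b did not pass detection. The scalings kept 9 or 10 rises and 0 falls, with medians of 0.44, 0.39 and 0.50 under median scaling, no scaling and the authors' values. Gja1, the gap junction protein connexin, had levels of 11.61, 10.97 and 11.47 at 8 h and 13.74, 13.23 and 13.23 at 15 h (2.05 ± 0.16, adjusted p = 6.70e-08). Vim, vimentin, rose by 1.60 ± 0.14, Sox9, a glial transcription factor, by 1.48 ± 0.12, and Id1 by 1.46 ± 0.12. Gfap, the classical astrocyte filament, read 7.37, 7.14 and 7.48 at 8 h and 7.38, 7.58 and 7.64 at 15 h, with overlapping groups, and did not pass (0.20 ± 0.19, adjusted p = 0.392), nor did Aqp4 (0.41 ± 0.19, adjusted p = 0.0818). These sums moved at the same time as the neuronal and stress lists above, and their part in those results was not tested.

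Of the oligodendrocyte lineage 4 of 11 markers rose and 0 fell, or 3 and 0 without 15 h replicate 1 and 2 or 3 rises with at most 1 fall under the other scalings. That array was the highest array in each gene named here. Cldn11, a myelin claudin, read 6.54, 6.86 and 6.55 at 8 h and 9.22, 8.20 and 8.15 at 15 h (1.87 ± 0.24, adjusted p = 7.36e-06), and Sox10, the lineage factor, 7.73, 8.59 and 7.58 at 8 h and 9.69, 8.53 and 8.58 at 15 h (0.97 ± 0.27, adjusted p = 0.00744), with an 8 h array inside the range of the 15 h arrays and a change of 0.59 without 15 h replicate 1. Gpr17 (0.74 ± 0.23) and Olig1 (0.37 ± 0.13), also of this lineage, no longer passed without it. The list's summed signal ran from 7435 to 10074 at 8 h and from 9807 to 15272 at 15 h, and the myelin genes Mag and Mog did not pass detection. Of 10 measured microglia markers 4 rose and 1 fell, among them the lysozyme gene Lyz2 (1.03 ± 0.11) and Laptm5 (1.50 ± 0.17). Their sum ran from 1337 to 1415 at 8 h and from 2243 to 3130 at 15 h, while 6 of 16 listed markers, Itgam, Cx3cr1, Csf1r, P2ry12, Tmem119 and Ptprc, did not pass detection. Of endothelial markers 7 of 11 did not pass detection, and the other 4, of which 2 rose (0 without 15 h replicate 1 and 0 with no scaling), summed to 295 to 299 at 8 h and 298 to 309 at 15 h. Of 7 fibroblast and mural markers 5 rose and 1 fell (4 and 2 with the other scalings), and their sum ran from 1876 to 2648 at 8 h and from 5407 to 5838 at 15 h, while the collagen genes Col1a1, Col1a2 and Col3a1 did not pass detection. At 15 h most of that sum came from 1 member, Acta2, so its rise does not describe the list as a whole. Acta2, smooth muscle actin, read 10.23, 9.20 and 10.27 at 8 h and 12.05, 12.17 and 12.14 at 15 h (2.22 ± 0.23, adjusted p = 1.10e-06), and Dcn, decorin, went the other way (−1.16 ± 0.16).

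Genes of cell shape and the cell surface rose beside them. Of 12 annexins and S100 proteins 11 rose and 0 fell, with a median of 0.84. Anxa3 read 7.94, 7.42 and 8.04 at 8 h and 10.32, 10.59 and 10.52 at 15 h, Anxa5, which binds exposed phosphatidylserine, rose by 1.45 ± 0.13, Anxa2 by 1.64 ± 0.20 and S100a6 by 1.82 ± 0.20. The annexin list gave 9, 7 and 8 rises with 1 fall under median scaling, no scaling and the authors' values. Of 17 matrix and integrin genes 11 rose and 1 fell, among them the laminin gene Lamc1 (1.56 ± 0.12), the integrin gene Itgb1 (1.08 ± 0.10, with 0.37 at a second probe) and the membrane protease gene Mmp14 (1.82 ± 0.18). With the other scalings the matrix list had 6 rises and 2 falls, and medians of 0.22, 0.17 and 0.28 in place of 0.56. Contractile genes gave 8 rises and 1 fall of 16 (7 rises and 2 or 3 falls with the other scalings), among them the myosin genes Myh9 (1.47 ± 0.12) and Myl9 (1.71 ± 0.14). Of inflammation genes 9 of 21 rose and 2 fell, with 6, 5 and 4 rises under median scaling, no scaling and the authors' values. Vcam1, an adhesion molecule, rose by 1.51 ± 0.20, and the TNF receptor gene Tnfrsf12a, which read 8.50, 7.18 and 8.44 at 8 h and 9.16, 9.79 and 9.83 at 15 h, by 1.56 ± 0.26.

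Proliferation genes rose in 12 of 28 cases and fell in 1, but gave 2 to 4 rises and 4 or 5 falls with the other scalings. Cdc20, of mitotic exit, rose by 1.17 ± 0.18, Mki67 by 0.83 ± 0.12, and the S phase factor gene E2f1 fell by 0.68 on the log2 scale. Immediate early genes gave 4 rises and 6 falls of 24, or 2 rises and 10 or 11 falls with the other scalings. Ier3 rose by 1.52 ± 0.12 and Homer1, whose short form is an activity gene, fell by 1.16. Fos read 10.00, 7.04 and 10.11 at 8 h and 9.05, 8.74 and 8.77 at 15 h: 8 h replicate 2 was low and the other 8 h arrays lay above all 15 h arrays, and the change did not pass (−0.20 ± 0.66, adjusted p = 0.819). That array was also the lowest of the 8 h group for Atf3, Atf4, Acta2 and Tnfrsf12a.

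Whether the change in this interval differed from its neighbours was tested directly, in the same fit. Against the change from 15 h to 24 h, 1848 genes had a higher and 2038 a lower value (35.1% of those tested), and against the change from vehicle to 8 h, 1767 and 1831 (32.5%). The intervals share the arrays at their common time, so that a high or low reading there enters both with opposite sign. Each difference also holds the change from 8 h to 15 h itself, so lists with large changes here lean that way. The intervals are not of equal length. Without 15 h replicate 1, 1767 genes had a higher and 1821 a lower value than in the next interval. List counts were not made without it. The NRF2 list had 16 of 27 members whose change was higher in this interval than in the next and 4 whose change was lower. The synaptic vesicle list had 1 higher and 18 lower of 25, against 16.7% and 18.4% of all genes. These 2 lists were not alone. Fatty acid oxidation genes gave 11 higher and 1 lower of 14, astrocyte markers 12 and 1 of 19, and the axonal cytoskeleton 4 and 20 of 34.

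Some of the genes that differed most from the next interval turned back. Dlx2 had group means of 9.56 at 8 h, 10.88 at 15 h and 8.26 at 24 h, a rise and then a fall. Pvalb also rose and came down in part, to 7.50. Angptl4 had a mean of 9.68 at 24 h, which did not pass against 15 h (adjusted p = 0.0548). Pdgfra, the receptor of oligodendrocyte precursors, whose own change did not pass (0.76 ± 0.31, adjusted p = 0.0504), dropped to 6.93. Hmox1 had a mean of 13.41 at 24 h (adjusted p = 0.0858 against 15 h). Sncb, Crmp1, Ncdn, a neuronal cytoplasmic protein, Kctd13, a ubiquitin ligase adaptor, and Atat1, a tubulin acetyltransferase, fell and then came back in part. Kctd13 read 11.70, 11.48 and 11.94 at 8 h and 9.46, 9.86 and 9.86 at 15 h and had a mean of 10.77 at 24 h. Against the first interval the largest differences were those of Angptl4, Hmox1, Srxn1, Gsta4 and Bdh2, a dehydrogenase, which rose, and of Ackr1, Fst, the activin antagonist follistatin, Crmp1, Aplp1 and Prss12, which fell. Fst had a vehicle mean of 7.76, then read 8.80, 8.71 and 8.82 at 8 h and 6.69, 6.79 and 6.83 at 15 h.

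**Figure D4:**
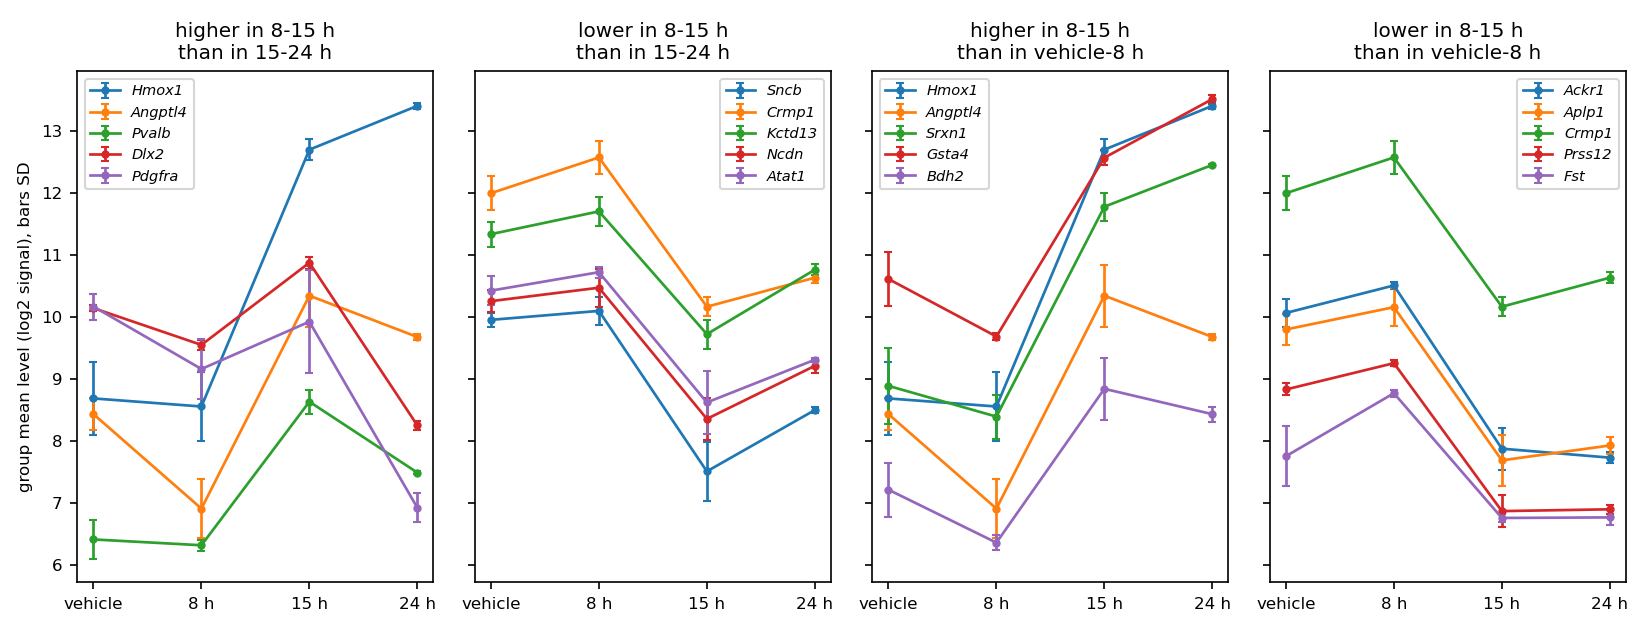
Group mean levels (log2 signal, bars SD) in vehicle (n = 4) and after 8 h, 15 h and 24 h of rotenone (n = 3 each) of the 5 genes whose change from 8 h to 15 h was most above or most below that of the next interval (left panels) and of the first interval (right panels). In the second panel Sncb falls to 15 h and has a mean of 8.50 at 24 h.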

How the data were processed

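RNA of 13 samples was measured on Illumina bead arrays (MouseRef-8 V1.1). Signal intensities were deposited by the authors without scaling, per the file headers (BeadStudio). The authors' normalized table holds a ratio of signal to the array median and then to the control median, as recomputation from the deposited signals showed (largest relative difference 3.75e-07). Detection values, a fraction equal to 1 minus the detection p per the file headers, were deposited in a separate gene profile. Its arrays were joined by identical signals, and for all 13 samples the replicate so found differs from the labels' code while the group is the same. That profile also holds 3 arrays of no sample here, and 102 of its columns were not used.

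Signals were background-corrected (normexp, offset 50, since the signal table itself has no detection values), quantile-normalized over 13 arrays and put on the log2 scale. Probes with detection p under 0.05 on at least 3 arrays were kept (14366), gene symbols came from accessions or, failing that, descriptions, and the brightest probe stood for a gene. 1 limma fit (3.58.1, R 4.3.3) of 4 groups, with 9 residual degrees of freedom and a mean-variance trend, tested 11064 genes with Benjamini-Hochberg adjustment over all of them. The fit was tested on simulated data. A gene not detected in 1 group on any array has a bound as its fold, against the lowest detected signal. Microarray alternatives covered background, scaling, filter, probe choice, chip, weights and left-out arrays.

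The 40 gene lists (987 symbols, 825 measured) and the comparison were chosen with earlier results of these data known. Named are the 15 largest rises and falls without overlap, up to 4 called members per list with the smallest p, some of the brightest uncalled members, a fixed set of 26 genes and the 5 largest differences between intervals in each direction. Prdx1, Me1, Gsta3, Chac1, Asns and Lamp1, described for their promoters, and the genes said to be named after their values were seen fall outside it. Some genes the rule picks are not reported here. Promoter windows are RefSeq's for GRCm38.p6. Names of array genes are those of the design, updated where matched.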

Additional observations from a re-analysis of the deposited data

Results flagged for a closer look

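The change from 8 h to 15 h differed from that of the next interval, by limma's test of the difference, most upward in Angptl4 (4.10 on the log2 scale), Dlx2 (3.95), Pdgfra (3.76), Pvalb (3.46) and Hmox1 (3.43), and most downward in Sncb (−3.57), Kctd13 (−3.02), Ncdn (−2.97), Crmp1 (−2.87) and Atat1 (−2.79). Against the first interval the differences were 4.95 for Angptl4, 4.27 for Hmox1, 3.88 for Srxn1, 3.81 for Gsta4 and 3.33 for Bdh2, and −3.07 for Ackr1, −3.03 for Fst, −2.98 for Crmp1, −2.83 for Aplp1 and −2.81 for Prss12. These genes were taken as the extremes of all tested genes, and the intervals share arrays. In the vehicle group, 1 of 4 arrays lay far from the others for 5 of 26 genes tested: Gdf15 (5.84 in replicate 4), Acta2 (9.21 in replicate 3), Bbc3 (6.45 in replicate 1), Fas (6.30 in replicate 1) and Gfap (8.09 in replicate 4). Chance flags about 1 in 20 groups. Among 489 detected probes without a gene symbol, which enter none of the counts above, 222 changed from 8 h to 15 h, 110 upward and 112 downward.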

How the results depend on the processing

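Among 30 alternatives, the number of genes that changed from 8 h to 15 h kept within 1.5 times 5653 in all but that within chip 2 of the labels (2564, of which 1239 rose and 1325 fell), and 1874 rose within chip 1 of the labels. Leaving out each array in turn gave 4947 to 5724. Scaling moved the split: 1545 rose and 4453 fell with median scaling, 1091 and 4670 with no scaling, and 1483 and 4571 with the authors' values. For the difference from the next interval, genes with a higher value numbered 1034, 826 and 987 under these scalings, and array weights gave 5870 in all, 2794 higher and 3076 lower. For the difference from the first interval, 960, 775 and 940 were higher under the 3 scalings, 3068 were lower with median scaling and 3209 with the authors' values, and array weights gave 5692, 2832 higher and 2860 lower. Why scaling and weights move these counts was not tested. Of 149 named genes that changed, 123 kept their call under all 30 alternatives, 132 under the 3 scalings and 144 whichever array was left out. The changes that turned sign were Aqp4 −0.070, Asns −0.0031, Atf4 −0.085, Gfap −0.089 and Gstp1 −0.36 with median scaling; Aqp4 −0.14, Asns −0.089, Atf4 −0.17, Gfap −0.15, Gstp1 −0.45 and Olig1 −0.017 with no scaling; Aqp4 −0.10, Asns −0.046, Atf4 −0.13, Gfap −0.11 and Gstp1 −0.41 with the authors' values. Further ones were Aqp4 −0.041, Atf4 −0.14, Gad1 0.054, Gstp1 −0.093, Hsd17b7 0.17, Mcl1 0.029 and Tubb5 0.093 within chip 2 by identical signals; Fos 0.18 and Unc13a 0.033 within chip 1 by identical signals; Eif2s2 0.087, Park7 0.026 and Unc13a 0.24 within chip 2 of the labels; Fos 0.37 and Mcl1 0.016 within chip 1 of the labels; Eif2s2 0.037, Insig1 0.036 and Unc13a 0.052 with array weights; Gad1 0.064 with the mean of a gene's probes. Over the left-out arrays the changes that turned sign ran from −1.20 to 0.34 for Fos, −0.0011 to 0.40 for Gstp1, −0.040 to 0.034 for Mcl1, −0.18 to 0.0063 for Tubb5 and −0.12 to 0.063 for Unc13a. The replicate block gave 5627 changed genes. Same-numbered arrays at 8 h and 15 h correlated at 0.128, 0.068 and −0.022 in their deviations, and differently numbered ones at −0.139 to 0.098. With 3 arrays a group these values cannot decide whether the numbers pair the samples. The main fit used no pairing. The offset of 50 compresses the changes of probes near background.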
